A study of Mus musculus with 19 samples.

Results

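Chromatin accessibility was examined at 4 genes of bone morphogenetic proteins (Bmp2, Bmp4, Bmp6 and Bmp7) and at the 4 Id genes (Id1, Id2, Id3 and Id4) in mouse neurospheres (NSPs) that were differentiated into astrocytes with or without TNF. A peak was assigned to a gene when its centre lay in the gene body or within 50 kb of either gene end, which took 78 of the 90154 peaks in the table. Bmp2 had 5 of these peaks, Bmp4 had 1, Bmp6 had 15, Bmp7 had 13, Id1 had 14, Id2 had 11, Id3 had 14 and Id4 had 5. A further peak, 111.3 kb below Bmp7, was added because of its measured response to TNF, so that 79 peaks are described. All 78 peaks near the genes passed the filter on low values, and each is 500 bp long, so that their levels can be compared between genes per length. Of these, 14 lay in a gene body and 64 outside, 9 were centred within 1 kb of a gene end (gene-end peaks), and 15 lay within another protein-coding gene. Positions are those of mouse build mm10 (GRCm38), and "below" and "above" a gene mean towards lower and higher coordinates.

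BMPs are secreted ligands of the TGF-β superfamily. They bind pairs of receptor kinases on the cell surface, which phosphorylate Smad1, Smad5 and Smad9, and these enter the nucleus together with Smad4. The Id genes are among the best known direct targets of this pathway. Id proteins bind transcription factors of the basic helix-loop-helix class and keep them from DNA, and in neural precursors BMP signalling is known to favour the astrocyte fate over neurons and oligodendrocytes.

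ATAC-seq was used, in which a transposase cuts open chromatin, and the deposited values are reads per peak that the authors had normalised between libraries. Cells of the ventricular zone of E14 C57BL/6J mouse embryos were grown as NSPs with EGF and B27, and differentiation was induced in medium with fetal serum. The 6 groups were undifferentiated NSPs (3 libraries), cells after 24 h without TNF (3) and with TNF (3), cells after 72 h without TNF (3) and with TNF (3), and cells after 1 week without TNF (4). TNF, an inflammatory cytokine, was used at 50 ng/ml, and no genetic change is given for any group. The labels number the libraries but do not name the embryo or culture of each, so that the p-values measure the spread between these libraries, which may be technical. In this bulk assay, a change in the share of cells with an open site and a change of openness per cell cannot be told apart.

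Reads in peaks ranged from 9640256 to 39349111 per library. The NSP libraries had 28636739 to 39349111, more than any other library, and the 24 h libraries without TNF 11758938 to 15083087. A single read stands for a value of 0.471 to 0.664 in NSPs and of 1.14 to 1.48 at 24 h without TNF. NSP replicate 1 stood apart from the other NSP libraries, with rank correlations between the NSP libraries of 0.913 to 0.982 against 0.940 to 0.978 within the other groups, and comparisons with NSPs were also computed without it. The library names of the 72 h, 72 h with TNF and 1 week groups carry a tag that those of the NSP and 24 h groups lack. Changes from 24 h to 72 h and from NSPs to 1 week therefore cannot be told apart from a difference between these sets of libraries, whereas 24 h against NSPs, 1 week against 72 h and both TNF comparisons lie within a set. Of the 90154 peaks, 216 separated the sets, with at most 3 reads in each library of one set and at least 20 in each of the other. None of the 78 peaks was among them. With so few such peaks, none is the likely outcome for any 78, and the rule cannot show a graded difference between the sets. Of the 7 astrocyte marker genes with a gene-end peak, 1 rose (Gfap) and 4 fell from NSPs to 24 h. From 72 h to 1 week, 1 rose (Sox9) and 3 fell (Gfap, Gja1 and S100b). Over the whole course 3 rose (Gfap, Gja1 and Slc1a3) and 2 fell (S100b and Slc1a2), with a median log2 change of 0.14. The largest of these changes was that of S100b (-1.63, SE 0.14). With TNF, none was called at 24 h, and Gfap (-1.10) and S100b (-0.54) were lower at 72 h. Of the 4 progenitor genes with a gene-end peak (Nes, Sox2, Egfr and Hes5), all fell to 24 h. At 1 week only Hes5 was called lower than in NSPs (calls are defined below), and the other 3 had risen from 72 h. Each Egfr library at 1 week was also below each NSP library, a difference that was not called (log2 change -0.21, adjusted p = 0.0746). Of the gene-end peaks of all genes, 6.27% rose and 39.3% fell from NSPs to 24 h. From 72 h to 1 week, 54.0% of them rose and 6.12% fell, and over the whole course 26.5% rose and 27.6% fell. With TNF at 72 h, 3.29% of them were higher and 1.45% lower. Not all of the marker peaks moved the way the labels name the cells, and their part in the results was not tested. No gene-end peak was listed for the neuronal genes Rbfox3 and Dcx, for the oligodendrocyte genes Sox10 and Mbp, for the microglial genes Aif1 and Cx3cr1 or for the astrocyte gene Aqp4.

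Most peaks near the BMP and Id genes changed during differentiation, some upwards and some downwards, and few changed with TNF. A change was called at an adjusted p under 0.05 in limma-trend, fitted to all peaks, and it is given on the scale of log2(value + 1). From NSPs to 24 h, 25 of the 78 peaks rose and 14 fell, a share of 50.0% against 47.2% of all peaks tested. From 24 h to 72 h, 9 rose and 8 fell (21.8%, against 26.4% of all peaks). From 72 h to 1 week, 16 rose and 17 fell (42.3%, against 38.7%). Over the whole course from NSPs to 1 week, 36 rose and 22 fell (74.4%, against 67.3%). With TNF at 24 h, 5 peaks rose and 1 fell (7.69%, against 10.6% of all peaks, 7.06% rising and 3.53% falling). With TNF at 72 h, 3 rose and 6 fell (11.5%, against 11.8%, with 6.24% rising and 5.55% falling). In each comparison the share called was near that of all peaks. Of the 78 peaks, 11 were called in none of the 6 comparisons.

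The scaling of the libraries bears on the balance of these calls. With equal total reads in place of the deposited scaling, the median over all peaks was 0.11 instead of -0.07 for 24 h against NSPs and -0.31 instead of 0.02 for 1 week against 72 h. With that scaling, 36 peaks rose and 12 fell from NSPs to 24 h, 14 rose and 7 fell from 24 h to 72 h, and 8 rose and 31 fell from 72 h to 1 week. At the last step, loess offsets gave 10 and 18, and edgeR with TMM gave 10 and 22. For TNF at 72 h, equal total reads gave 1 higher and 8 lower. For TNF at 24 h, they gave 5 higher and 0 lower, and DESeq2 gave 5 and 2.

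The balance of rising and falling peaks is given for each gene over the whole course, with no test between genes. From NSPs to 1 week, 12 of the 15 Bmp6 peaks rose and 1 fell, with a median log2 change of 1.35, whereas 3 of the 13 Bmp7 peaks rose and 6 fell, with a median of -0.39. At Bmp2, 2 of 5 rose and 1 fell, and the single Bmp4 peak fell. Among the Id genes, all 5 Id4 peaks rose, although the call of 1 of them was lost under 11 of 27 alternatives. At Id1, 8 of 14 rose and 4 fell, and without NSP replicate 1 these were 5 and 4. The counts were 4 rising and 4 falling at Id3, and 2 of 11 rising and 5 falling at Id2. For comparison, 33.7% of all peaks rose and 33.6% fell over this course, with a median change of 0.01.

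**Figure D1:**
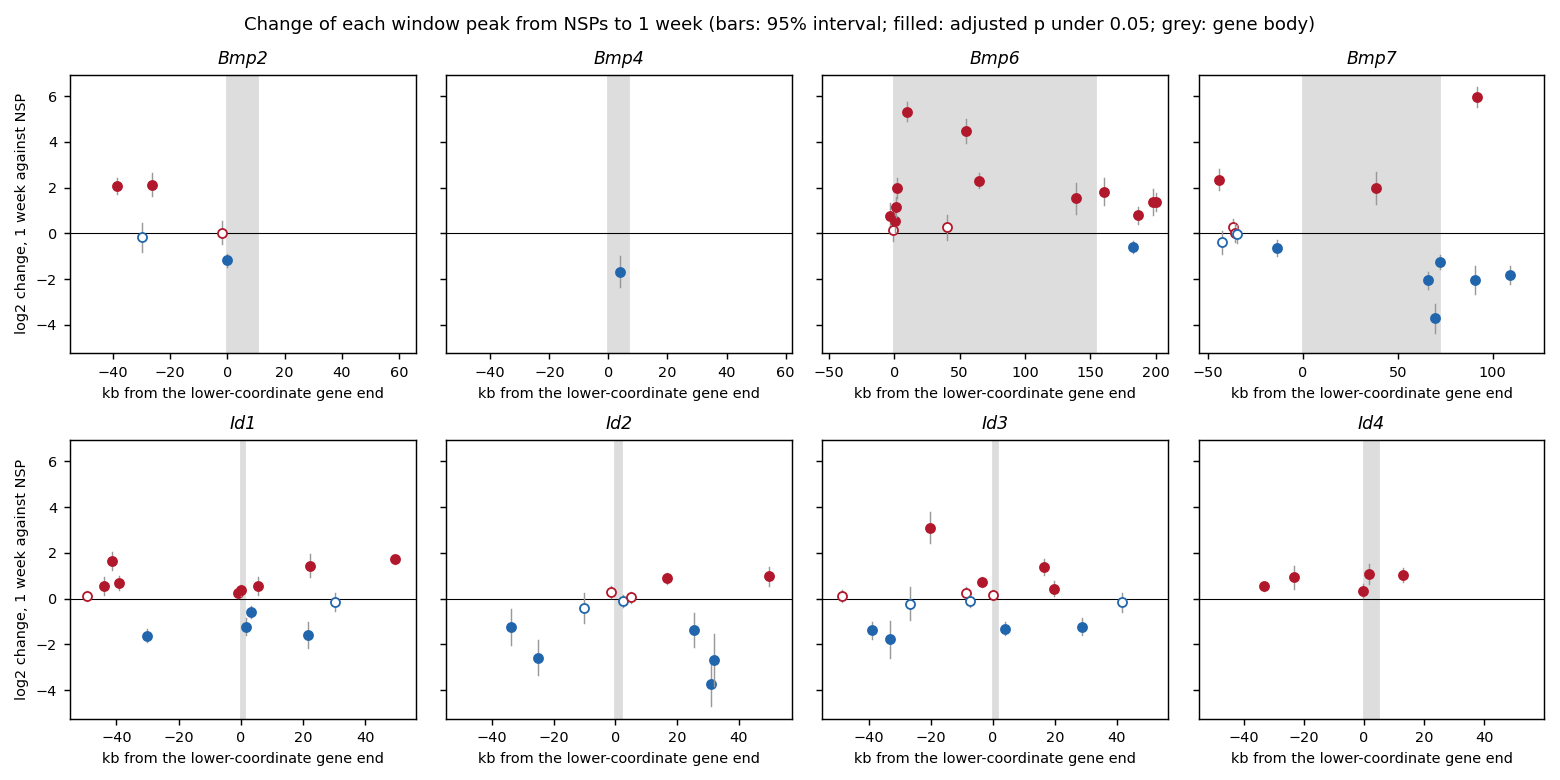
Log2 change from NSPs to 1 week (y axis) against the distance of each peak's centre from the lower end of its gene in kb (x axis), with one panel for each of the 8 genes and the gene body in grey. Points are peaks with their 95% intervals, filled where the adjusted p is under 0.05; the 12 rising Bmp6 peaks lie in the gene and on both sides of it, whereas rising and falling peaks alternate around Bmp7, Id1 and Id3.

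Bmp2 encodes a ligand of the same subgroup as Bmp4. Its gene-end peak, centred 17 bp from the lower end at chr2:133551926-133552426, lost accessibility early. The values were 334, 337 and 332 in NSPs, 245, 196 and 206 at 24 h, 125, 138 and 140.2 at 72 h and 143, 129, 180.4 and 139 at 1 week. Each NSP library was above each 24 h library, and each 24 h library above each 72 h library, whereas 72 h and 1 week overlapped. The log2 change was -0.64 (SE 0.16, adjusted p = 0.00144) from NSPs to 24 h and -0.67 (SE 0.16, adjusted p = 0.00215) from 24 h to 72 h. Below the gene, 2 peaks moved the opposite way. At chr2:133513559-133514059, 38.4 kb below, the values were 81.2, 45.7 and 63.8 in NSPs and 129.8, 184 and 154 at 24 h, with a mean of 261 ± 29.2 (SD, n = 4) at 1 week. The 24 h libraries were all higher than the NSP libraries (1.31, SE 0.18, adjusted p = 8.8e-07). At chr2:133525699-133526199, 26.2 kb below, the mean rose from 26.5 ± 5.89 (SD, n = 3) in NSPs to 81.6 ± 10.4 (SD, n = 3) at 24 h (1.60, SE 0.27, adjusted p = 1.51e-05). The other 2 Bmp2 peaks, with group means of 32.6 to 69.0, were called in no comparison, and none of the 5 was called with TNF. At the gene-end peak, the values with TNF were 266, 301 and 223 at 24 h and 166, 214 and 151 at 72 h, the latter not overlapping with the untreated libraries, with changes of 0.28 and 0.39 that missed the threshold (adjusted p = 0.302 and 0.116).

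Bmp4, a ligand long used to drive astrocyte differentiation in culture, had no peak within 1 kb of either end and a single peak in its gene body, at chr14:46387189-46387689. The values were 52.0, 74.4 and 87.7 in NSPs, 52.4, 57.5 and 46.8 at 24 h, 47.6, 67.0 and 49.7 at 72 h and 33.5, 20.3, 30.8 and 9.65 at 1 week. All 1 week libraries were below all others, and the remaining groups overlapped with their neighbours in the order of means. The fall from 72 h to 1 week was called (-1.30, SE 0.32, adjusted p = 0.00206), and the change with TNF was -0.13 at 24 h and 0.03 at 72 h, neither called.

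Bmp6, a ligand of the subgroup that also holds Bmp7, showed little at its gene ends and large gains inside the gene. Its gene-end peaks, 661 bp below the lower end at chr13:38344805-38345305 and 637 bp inside it at chr13:38346103-38346603, were the weakest of the 9, with group means of 53.4 to 77.6 and of 45.2 to 66.3. Of these, only the second was called, from NSPs to 1 week (0.55, SE 0.23, adjusted p = 0.0389), and that call was lost without NSP replicate 1 (adjusted p = 0.0613) and under 6 other alternatives. At chr13:38354915-38355415, 9.45 kb into the gene, the values were 12.3, 6.60 and 16.6 in NSPs, 74.0, 66.4 and 82.5 at 24 h, 232, 145 and 177 at 72 h and 458, 457, 539 and 487 at 1 week. The 4 untreated groups did not overlap at any step. The change was 2.63, SE 0.23, adjusted p = 9.77e-11 from NSPs to 24 h, and 5.32 (SE 0.21) over the whole course. A peak 55.1 kb into the gene, at chr13:38400532-38401032, followed the same order, with means of 10.4 ± 5.12, 55.8 ± 15.9, 173 ± 10.2 and 233 ± 37.9 (SD, n = 3, 3, 3 and 4) in NSPs, at 24 h, at 72 h and at 1 week. Of the other Bmp6 peaks in the gene, those at chr13:38347012-38347512, chr13:38347674-38348174 and chr13:38484616-38485116 also rose over the course, to means of 133, 139 and 62.7 at 1 week from 58.5, 35.2 and 20.9 in NSPs, while the one at chr13:38386088-38386588 was called in no comparison. The NSP values of the peaks 9.45 and 55.1 kb into the gene rest on 10 to 25 reads per library.

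Among the Bmp6 peaks, the one at chr13:38410463-38410963, 65.0 kb into the gene, was higher with TNF at both times. The values were 109, 143 and 102 at 24 h against 269.7, 239 and 308 with TNF, and 176, 199 and 259 at 72 h against 382, 371 and 373 with TNF. Every TNF library was above every untreated library of its time. The change was 1.21, SE 0.17, adjusted p = 1.82e-05 at 24 h and 0.85, SE 0.17, adjusted p = 0.00122 at 72 h, and both calls held under all 27 alternatives. The same peak did not rise from NSPs (118 ± 25.7) to 24 h and reached 577 ± 83.1 (SD, n = 4) at 1 week without TNF, above every other library. Beyond the upper end of Bmp6, 2 peaks were lower with TNF at 72 h. At chr13:38532263-38532763, 32.2 kb above, the values were 225, 177 and 247 at 72 h and 96.6, 93.1 and 110.4 with TNF, with no overlap (-1.10, SE 0.19, adjusted p = 0.000257). At chr13:38545398-38545898, 45.3 kb above, they were 283, 311 and 257 and 185, 168 and 142 (-0.78, SE 0.20, adjusted p = 0.00938), a call that was lost without 72 h replicate 2 or 72 h with TNF replicate 3. The gene-end peak of the neighbouring gene Txndc5 in this interval, at chr13:38527847-38528347, went the other way, from 219 ± 19.9 to 299.6 ± 31.7 (SD, n = 3 each; 0.45, SE 0.13, adjusted p = 0.0228).

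**Figure D2:**
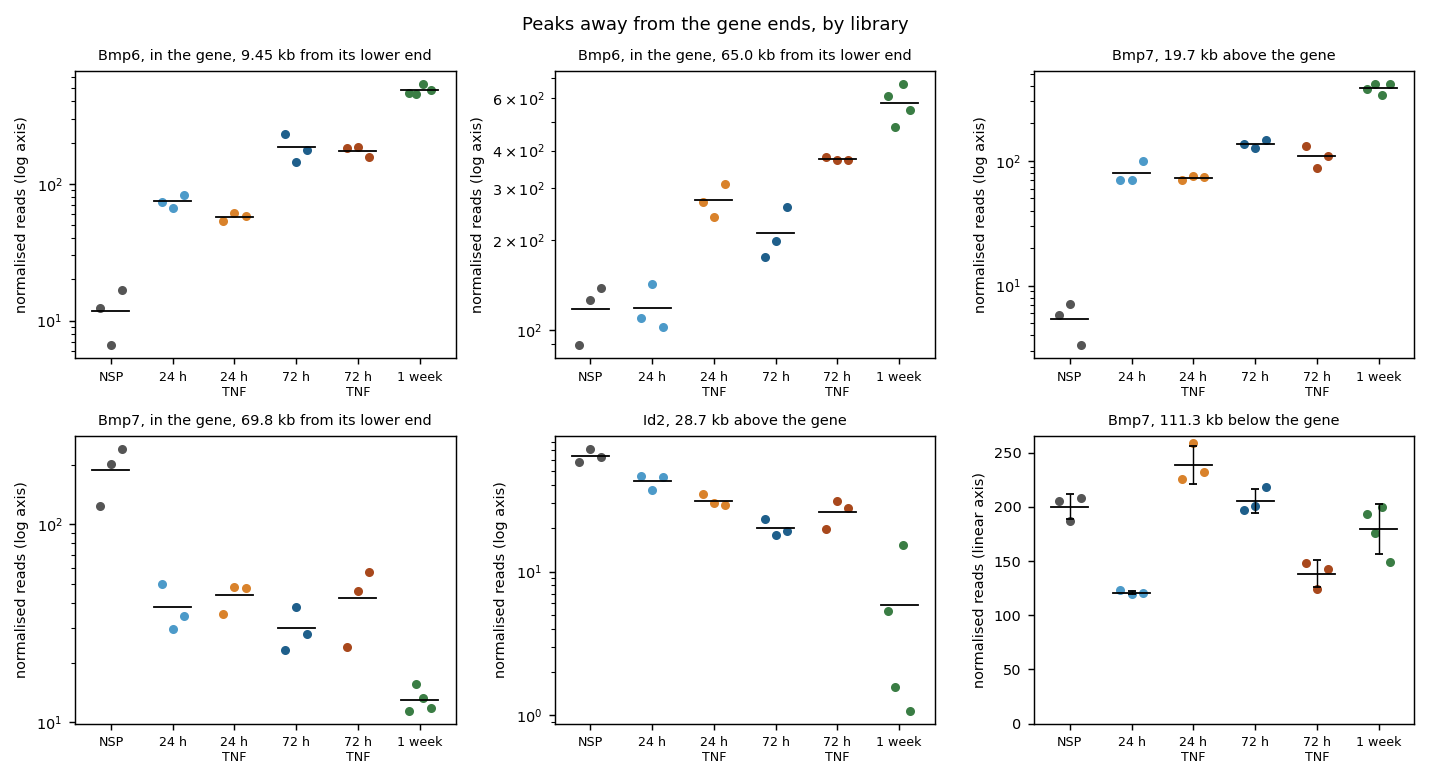
Normalised reads in each library (points) with the group mean (bar) at 6 peaks away from the gene ends, for the 6 groups on the x axis; the y axes are logarithmic except in the last panel, which is linear and has SD bars. The Bmp6 peak 9.45 kb into the gene and the Bmp7 peak 19.7 kb above that gene rise at each untreated step, the Bmp7 peak 69.8 kb into the gene and the Id2 peak 28.7 kb above the gene fall, and the TNF libraries lie above the untreated ones at both times in the Bmp6 panel at 65.0 kb.

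Bmp7 lost accessibility at its gene-end peak and in the part of the gene next to it, and gained it at a peak above the gene. At the gene-end peak, centred 42 bp from the upper end at chr2:172940113-172940613, the values were 362, 600.2 and 506 in NSPs, 269, 329 and 264 at 24 h, 188, 222 and 149 at 72 h and 195, 225, 183 and 206 at 1 week. NSPs, 24 h and 72 h did not overlap, while 72 h and 1 week did. The peak fell from NSPs to 24 h (-0.74, SE 0.16, adjusted p = 0.000417) and again to 72 h (-0.63, SE 0.16, adjusted p = 0.00485). The largest fall of any of the 78 peaks at 24 h was at chr2:172937515-172938015, 2.56 kb inside the upper end, from 188 ± 59.1 in NSPs to 38.0 ± 10.7 at 24 h and 13.0 ± 1.88 at 1 week (SD, n = 3, 3 and 4; -2.26, SE 0.33, adjusted p = 1.74e-06 at the first step). At chr2:172933598-172934098, further into the gene, the mean fell from 339.6 to 141 at 24 h and 80.4 at 1 week. Against these, the peak at chr2:172959779-172960279, 19.7 kb above the gene, was nearly closed in NSPs, with 5.84, 7.07 and 3.32. It had 70.6, 70.8 and 99.8 at 24 h, 136, 128 and 148 at 72 h and 379, 411, 339 and 416 at 1 week. No library of one untreated group overlapped with another, and the rise to 24 h was the largest change of any of the 78 peaks at that step (3.69, SE 0.22, adjusted p = 5.27e-14), although the NSP values rest on 5 to 15 reads. Below the gene, 6 peaks lay 13.6 to 44.1 kb away. Of these, the outermost rose at each step, from 69.4 ± 37.4 in NSPs to 113 ± 14.7 at 24 h, 217 ± 19.2 at 72 h and 326 ± 30.9 at 1 week, although the call of the last step was lost under 9 of 27 alternatives and that of the first under 2. The innermost fell from 246 ± 39.9 to 114 ± 25.8 at 24 h. A peak at chr2:172906072-172906572 within the gene rose from 9.10 to 22.0 at 24 h, a call that was lost without NSP replicate 1 (adjusted p = 0.0677). Among the other 4 peaks below the gene, the only call was a rise of 0.43 from 72 h to 1 week at chr2:172831046-172831546, lost under 7 of 27 alternatives. A peak 37.1 kb above the gene, at an end of Spo11, fell from 256 ± 48.0 to 76.4 ± 10.5 at 24 h (SD, n = 3 each; -1.72, SE 0.21, adjusted p = 1.33e-07).

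With TNF, 1 Bmp7 peak near the gene was lower, at chr2:172958453-172958953, next to the peak that opened. The values were 78.6, 73.8 and 65.3 at 24 h and 25.6, 44.2 and 42.6 with TNF, and 61.8, 59.8 and 66.3 at 72 h and 24.1, 13.3 and 39.6 with TNF. Treated and untreated libraries did not overlap at either time. The change was -0.97, SE 0.32, adjusted p = 0.0478 at 24 h, a call that was lost under 16 of 27 alternatives, and -1.38, SE 0.32, adjusted p = 0.00404 at 72 h, where it was lost without 72 h with TNF replicate 2 (adjusted p = 0.0502). Without TNF this peak fell over the course as well, from 141 ± 25.4 (SD, n = 3) in NSPs to 34.0 ± 9.74 (SD, n = 4) at 1 week.

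The peak 111.3 kb below Bmp7, at chr2:172756448-172756948, had been chosen for its opposite responses to TNF at the 2 times, and its values are therefore given without a test. They were 206, 187 and 208 in NSPs, 123, 119 and 121 at 24 h, 225, 259 and 233 at 24 h with TNF, 197, 201 and 218 at 72 h, 148, 124.2 and 143 at 72 h with TNF and 193, 176, 200.3 and 149 at 1 week. With TNF every library was higher than the untreated ones at 24 h and lower at 72 h, by log2 changes of 0.97 and -0.57. Without TNF, the level at 24 h was below that in NSPs and at 72 h. The untreated levels at 24 h and 72 h had a part in the choice, so that this dip is a description. The difference between 1 week and NSPs, which had no part in the choice, was not called (-0.16, SE 0.13, adjusted p = 0.289).

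In NSPs, the gene-end peaks of Id2, Id3 and Id4 had mean levels of 1926, 822 and 1381 per 500 bp, above the 45.2 to 489 of the ligand genes, whereas the Id1 peaks, at 396 and 218, lay within that range. RefSeq promoter sequences were used for 5 of the 8 genes (GRCm38.p6, Bmp4, Bmp6, Id2, Id3 and Id4), and the 250 bases before the start are shown for those of the Id genes, which lie wholly or mostly in the gene-end peaks, and for Bmp6, whose promoter lies between its 2 weak peaks. They are Id2 at chr12:25096093-25096342 (minus strand, 250 bases in the peak), Id3 at chr4:136143572-136143821 (plus strand, 250 bases in the peak), Id4 at chr13:48260866-48261115 (plus strand, 223 bases in the peak) and Bmp6 at chr13:38345466-38345715 (plus strand, no base in a peak). Capitals mark matches on either strand to CCAAT, to the GC box GGGCGG and to GGCGCC, a GC-rich Smad motif.
Id2: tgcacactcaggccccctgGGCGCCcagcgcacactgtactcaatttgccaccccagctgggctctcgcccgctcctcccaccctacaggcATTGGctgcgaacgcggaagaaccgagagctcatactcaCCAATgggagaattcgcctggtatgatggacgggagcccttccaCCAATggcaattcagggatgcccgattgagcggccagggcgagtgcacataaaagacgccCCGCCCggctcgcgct
Id3: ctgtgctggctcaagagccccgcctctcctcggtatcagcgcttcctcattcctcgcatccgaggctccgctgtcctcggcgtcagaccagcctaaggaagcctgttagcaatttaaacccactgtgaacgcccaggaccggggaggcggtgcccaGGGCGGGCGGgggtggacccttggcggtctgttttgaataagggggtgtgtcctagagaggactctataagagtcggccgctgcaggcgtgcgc
Id4: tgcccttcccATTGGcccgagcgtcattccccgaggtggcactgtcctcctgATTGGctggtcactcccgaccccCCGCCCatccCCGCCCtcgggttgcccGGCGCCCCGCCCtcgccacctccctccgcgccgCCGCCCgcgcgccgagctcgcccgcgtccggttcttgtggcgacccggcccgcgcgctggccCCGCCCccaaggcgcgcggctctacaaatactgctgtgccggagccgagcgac
Bmp6: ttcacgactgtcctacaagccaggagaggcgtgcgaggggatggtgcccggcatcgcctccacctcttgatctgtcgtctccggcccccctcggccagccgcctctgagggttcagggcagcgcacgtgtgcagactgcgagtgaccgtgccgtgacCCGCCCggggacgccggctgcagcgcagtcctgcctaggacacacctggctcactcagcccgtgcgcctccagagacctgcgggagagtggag
The Id2 promoter holds 3 CCAAT matches, 1 GC box and 1 GGCGCC. The Id4 promoter holds 2 CCAAT matches, 5 GC boxes and 1 GGCGCC, which abuts a GC box, and that of Id3 holds 2 overlapping GC boxes. Bmp6 and Bmp4 hold 1 GC box each. TATAAA and an NF-κB motif were found in none of the 5. Of 32851 RefSeq promoters with the 50 bases after the start included, 37.4% held CCAAT, 35.7% GGGCGG, 11.9% GGCGCC, 13.6% TATAAA and 1.63% the NF-κB motif. With those bases included, the 5 promoters were 60.0% (Id3) to 73.3% (Id4) G or C, against a median of 52.7% for all promoters. What this adds to the matches was not tested. A match is a description of the letters and not of a bound site.

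**Figure D3:**
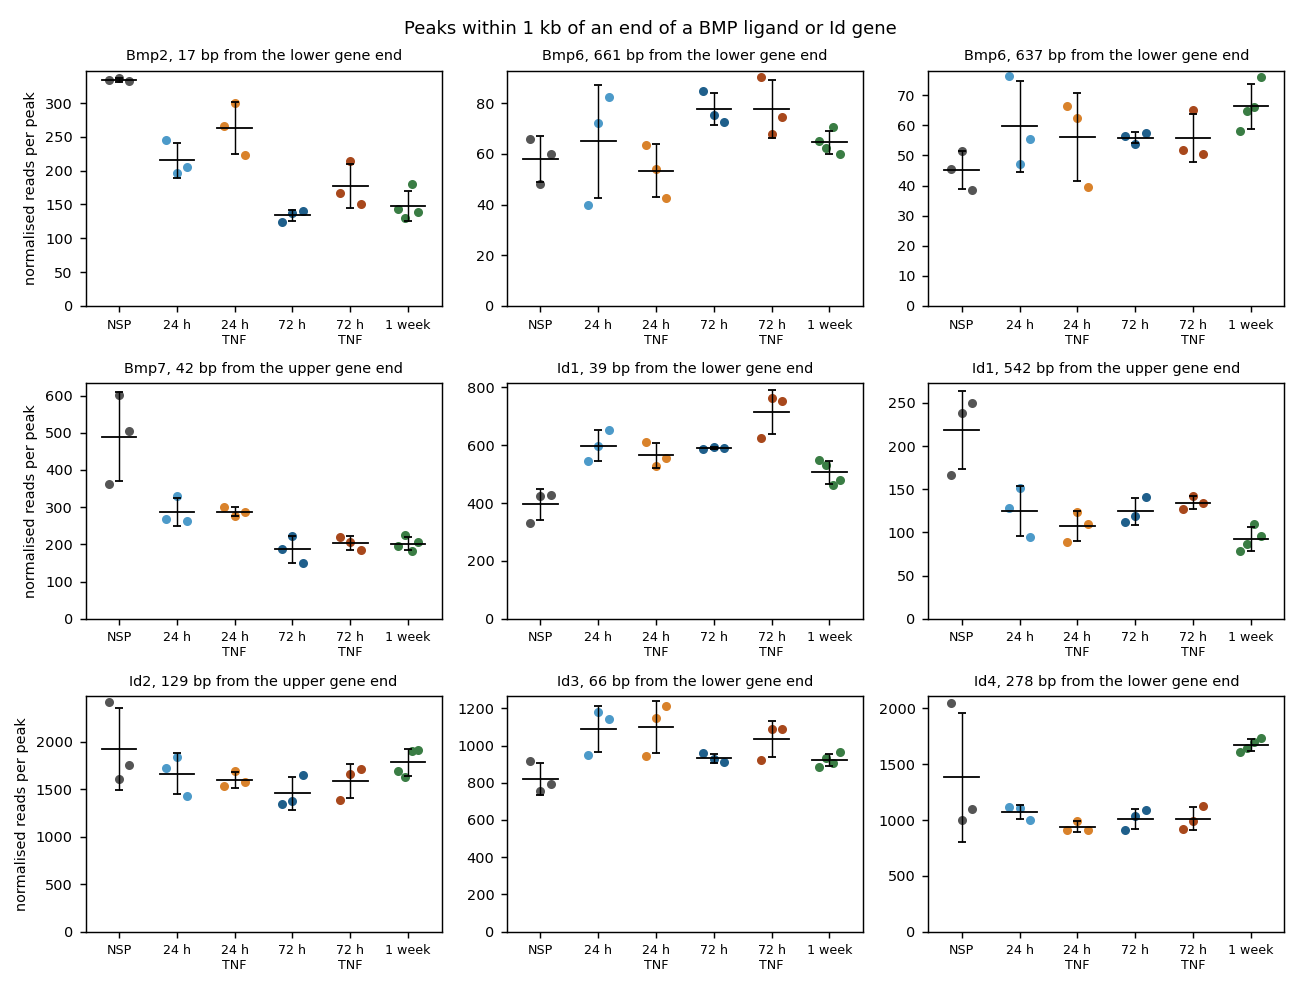
Normalised reads per 500 bp peak (y axis, from 0) in each library (points), with group mean and SD, at the 9 peaks within 1 kb of an end of a BMP ligand or Id gene, for the 6 groups on the x axis. Bmp2 and Bmp7 are highest in NSPs, both Bmp6 peaks stay under 100 reads, Id1 is lowest in NSPs at its lower end and highest there at its upper end, and 1 NSP library lies far above the others at Id4.

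Id1 showed opposite changes at its ends. At the peak 39 bp below its lower end, chr2:152735962-152736462, the values were 333, 426 and 427 in NSPs and 545, 599 and 652 at 24 h, with means of 590.5 ± 3.36 (SD, n = 3) at 72 h and 506 ± 40.9 (SD, n = 4) at 1 week. All 24 h libraries were above all NSP libraries (0.60, SE 0.12, adjusted p = 0.00014), and the higher level at 1 week than in NSPs (0.36, SE 0.11, adjusted p = 0.00583) was not called without NSP replicate 1 (0.24, adjusted p = 0.0512). At the peak 542 bp above its upper end, chr2:152737702-152738202, the means were 218 ± 44.8 in NSPs, 125 ± 28.7 at 24 h and 92.6 ± 13.5 at 1 week (SD, n = 3, 3 and 4), a fall that was called at the first step (-0.80, SE 0.20, adjusted p = 0.00126). Further out, the peak at chr2:152705878-152706378, 30.1 kb below Id1 within H13, had 631, 774 and 775 at 24 h, 314, 330.1 and 340.3 at 72 h and 179, 201, 288 and 175 at 1 week, and fell at both steps (-1.14 and -0.67, adjusted p = 2.11e-06 and 0.000413). The peak at chr2:152757413-152757913, 20.3 kb above Id1 within Cox4i2, had 78.5, 94.5 and 109.6 at 72 h, 26.8, 47.3 and 49.2 at 72 h with TNF and 15.9, 24.9, 19.8 and 17.2 at 1 week. These 3 groups did not overlap. It was lower with TNF at 72 h (-1.21, SE 0.30, adjusted p = 0.00621), which was lost without 72 h with TNF replicate 1, and fell from 72 h to 1 week without TNF (-2.23, SE 0.28, adjusted p = 8.58e-07). The highest level of any Id1 peak at 1 week was at chr2:152785469-152785969, within Bcl2l1 and 48.3 kb above Id1, where the mean went from 650.2 ± 99.0 (SD, n = 3) in NSPs to 2126 ± 109.8 (SD, n = 4). The other peaks within H13, 39.3 to 49.3 kb below Id1, changed by 0.10 to 1.65 over the course, and 3 of these 4 rose. The peak at an end of Bcl2l1, chr2:152758338-152758838, rose from 22.7 in NSPs to 70.9 at 24 h and fell from 106 at 72 h to 63.3 at 1 week, the latter call being lost under 6 of 27 alternatives. A peak 2.05 kb above Id1, at chr2:152739211-152739711, was higher with TNF at 72 h, with 225, 254 and 278 against 166, 171 and 196 (0.50, SE 0.14, adjusted p = 0.0174), a call lost under 5 of 27 alternatives, among them scaling to equal total reads.

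Id2 had the highest mean of the 9 gene-end peaks in each of the 6 groups, and it was called in no comparison. At chr12:25095971-25096471, 129 bp above its upper end, the values were 2419, 1609.7 and 1749.6 in NSPs, 1721, 1843 and 1424 at 24 h, 1338, 1372 and 1652 at 72 h and 1696, 1623, 1897 and 1911 at 1 week. Groups that follow each other in time overlapped. The difference between 1 week and 72 h was 0.30, SE 0.12, adjusted p = 0.0547, and it changed sign with the scaling, to -0.047 with equal total reads and to -0.38 with loess offsets. From 72 h to 1 week, 6 of the 11 Id2 peaks fell and 1 rose, with a median log2 change of -0.94 against 0.02 for all peaks, of which 16.2% fell. Without 72 h replicate 2, 3 fell and 0 rose. With loess offsets the calls at 3 of the 6, those starting at 25068559, 25083213 and 25125405, and that of the 1 rise were lost. At chr12:25124576-25125076, 28.7 kb above Id2, the values were 57.8, 71.6 and 63.1 in NSPs, 46.7, 36.9 and 45.6 at 24 h, 23.2, 17.9 and 19.1 at 72 h and 5.29, 1.56, 15.4 and 1.07 at 1 week, the last being 1 to 7 reads per library. At chr12:25068559-25069059, 25.0 kb below Id2, the mean fell from 67.9 ± 14.1 in NSPs to 28.9 ± 13.2 at 72 h and 11.1 ± 4.74 at 1 week (SD, n = 3, 3 and 4). The falling peaks at chr12:25059735-25060235, chr12:25119161-25119661 and chr12:25125405-25125905 had means of 51.2, 68.8 and 20.1 at 72 h and of 19.6, 25.1 and 5.77 at 1 week, and the peaks 1.33 kb below and 2.83 kb above Id2 changed by 0.37, which was called, and 0.11, which was not. The outermost peak, chr12:25143498-25143998, 47.7 kb above Id2, rose early instead, from 234, 109 and 84.4 in NSPs to 327, 311 and 257 at 24 h (1.20, SE 0.23, adjusted p = 7.16e-05). At 1 week it was at 255. The peak at chr12:25110212-25110712, 14.4 kb above Id2, had 227, 280.3 and 203 at 24 h, 333, 345 and 360.4 at 24 h with TNF and 389, 378 and 400.2 at 72 h. It was higher with TNF at 24 h (0.56, SE 0.13, adjusted p = 0.0056) and rose from 24 h to 72 h without TNF (0.73, SE 0.13, adjusted p = 0.0002), and at 72 h TNF and untreated libraries overlapped. The peak at chr12:25083213-25083713, 10.3 kb below Id2, was lower with TNF at 72 h, with 50.1, 44.3 and 66.0 against 97.8, 114 and 126 (-1.07, SE 0.34, adjusted p = 0.0381), and this call was lost under 7 of 27 alternatives, DESeq2 among them. In NSPs the same peak had 197, 62.2 and 37.2, with replicate 1 far above the others, and without that replicate its rise to 24 h was called (1.38, adjusted p = 2.13e-05).

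Id3 moved both ways within 24 h, with 6 of its 14 peaks rising and 4 falling, against 24.2% and 23.0% of all peaks. The rises were at the gene-end peak, at 4 peaks below it and at the peak starting at 136160065 above it. At the gene-end peak, chr4:136143506-136144006, the values were 919, 755 and 792 in NSPs and 949.5, 1180.2 and 1141 at 24 h, which did not overlap (0.41, SE 0.11, adjusted p = 0.00407). The means at 72 h and 1 week were 932 ± 23.9 (SD, n = 3) and 923 ± 33.6 (SD, n = 4). The peak at chr4:136140228-136140728, 3.34 kb below the gene, had 663, 484 and 571 in NSPs and 1145, 1108 and 1095 at 24 h (0.97, SE 0.11, adjusted p = 2.87e-08), and stayed near 944 at 1 week. At chr4:136136075-136136575, 7.50 kb below, the mean was 307 ± 35.6 in NSPs, 571 ± 73.8 at 24 h and 283 ± 17.5 at 1 week (SD, n = 3, 3 and 4), and the 1 week libraries overlapped with those of NSPs. This peak was lower with TNF at 72 h, with 345, 350.3 and 352 against 481, 523 and 488 (-0.51, SE 0.12, adjusted p = 0.0047), and the call held under all 27 alternatives. On the other side, the peak at chr4:136147617-136148117, 2.48 kb above Id3, fell from 649.7 ± 135 at 24 h to 285 ± 23.0 at 72 h (SD, n = 3 each; -1.17, SE 0.15, adjusted p = 1.18e-06).

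Further below Id3, the peaks at chr4:136104569-136105069 and chr4:136110427-136110927 fell by 24 h, from 580.2 ± 202 to 234 ± 13.8 and from 105 ± 64.9 to 39.7 ± 0.972 (SD, n = 3 each). The second call (-1.07, SE 0.42, adjusted p = 0.0345) was lost under 7 of 27 alternatives, scaling to equal total reads and leaving out any 24 h library among them. The outermost peak, 48.7 kb below, was called in no comparison. Above Id3, the peak at chr4:136160065-136160565 rose at the first 2 steps, from 75.0 to 105 and 175, and the first of these calls was lost under 4 of 27 alternatives. The peaks starting at 136172257 and 136185291, also above Id3, fell from NSPs to 24 h (-0.87 and -0.75, adjusted p = 0.000817 and 0.00588).

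Of the 5 peaks that rose with TNF at 24 h, 3 were among the 14 near Id3, against 7.06% of all peaks that rose. At chr4:136185291-136185791, 40.1 kb above Id3 within E2f2, the values were 59.2, 45.7 and 57.9 at 24 h and 98.2, 113 and 101 with TNF (0.93, SE 0.22, adjusted p = 0.00468). At chr4:136117005-136117505, 26.6 kb below Id3, they were 138, 85.6 and 142 and 289, 259 and 382 (1.36, SE 0.37, adjusted p = 0.0155). At chr4:136123335-136123835, 20.2 kb below, they were 35.3, 28.0 and 37.0 and 92.0, 52.8 and 101 (1.22, SE 0.36, adjusted p = 0.0238). Treated and untreated libraries did not overlap at any of the 3, nor at 26274 of all 88919 peaks tested. The first call held under all 27 alternatives, whereas the other 2 were lost under 2 and 4 of them, each time by leaving out a 24 h library with or without TNF. At chr4:136117005-136117505 the NSP values were 44.4, 269 and 272, replicate 1 being the low one, and without it the fall to 24 h was called (-1.18, adjusted p = 1.14e-06). At chr4:136185291-136185791 the untreated 24 h group had the lowest mean, at 54.3, against 93.5 in NSPs and 91.6 at 72 h. The fall from NSPs to 24 h was called (-0.75, adjusted p = 0.00588). The 24 h libraries with TNF, at a mean of 104, overlapped with those of NSPs.

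Id4, whose protein is known for keeping neural stem cells quiescent, had 5 peaks that were all called higher at 1 week than in NSPs. At its gene-end peak, chr13:48260588-48261088, the values were 2046, 998 and 1100.4 in NSPs, 1116, 1108 and 1003 at 24 h, 912, 1037 and 1087 at 72 h and 1611, 1643, 1699 and 1734 at 1 week. All 1 week libraries were above all 24 h and 72 h libraries, and NSP replicate 1 was above all others. The rise from 72 h to 1 week was called (0.73, SE 0.15, adjusted p = 0.000294), but with loess offsets it was 0.13 (adjusted p = 0.399), and across all gene-end peaks the median change at this step was 0.39. Against NSPs, the change at 1 week was 0.35, SE 0.15, adjusted p = 0.0355, a call that was lost under 11 of 27 alternatives, among them both other scalings, edgeR and DESeq2 (adjusted p up to 0.368), and without NSP replicate 1 it was 0.67 (adjusted p = 1.70e-07). At chr13:48227670-48228170, 33.2 kb below the gene, the means were 862 ± 161 in NSPs, 909 ± 36.4 at 72 h and 1241 ± 64.0 at 1 week (SD, n = 3, 3 and 4), and the rise from 72 h (0.45, SE 0.10, adjusted p = 0.000857) turned to -0.10 with loess offsets. The other 3 Id4 peaks, at chr13:48237482-48237982, chr13:48262434-48262934 and chr13:48273671-48274171, rose from NSPs to 1 week by 0.93, 1.08 and 1.03. No Id4 peak was called with TNF at either time.

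None of the 9 gene-end peaks was called with TNF at either time, against 2.83% of all gene-end peaks at 24 h and 4.74% at 72 h. For those 9, the changes at 24 h lay between -0.23 and 0.28, and those at 72 h between -0.01 and 0.39. In all, 13 of the 78 peaks (16.7%) were called at either time, against 16.9% of all peaks, and 2 (2.56%) at both, against 5.51%. The latter were the Bmp6 peak 65.0 kb into the gene and the Bmp7 peak 18.4 kb above it. The change had the same sign at both times at 52 of the 78 peaks (66.7%, against 65.9% of all peaks tested). The difference between the responses at 72 h and 24 h was called at none of the 78 peaks by limma, edgeR or DESeq2, and 6 of them had an unadjusted p under 0.05 in limma, as had 6675 of all 88919 peaks. Of all peaks, limma called 1 there (0.00112%). It was the peak 111.3 kb below Bmp7, which had been chosen on this difference, so that its call adds nothing. DESeq2 called 18 of all peaks higher and 67 lower.

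**Figure D4:**
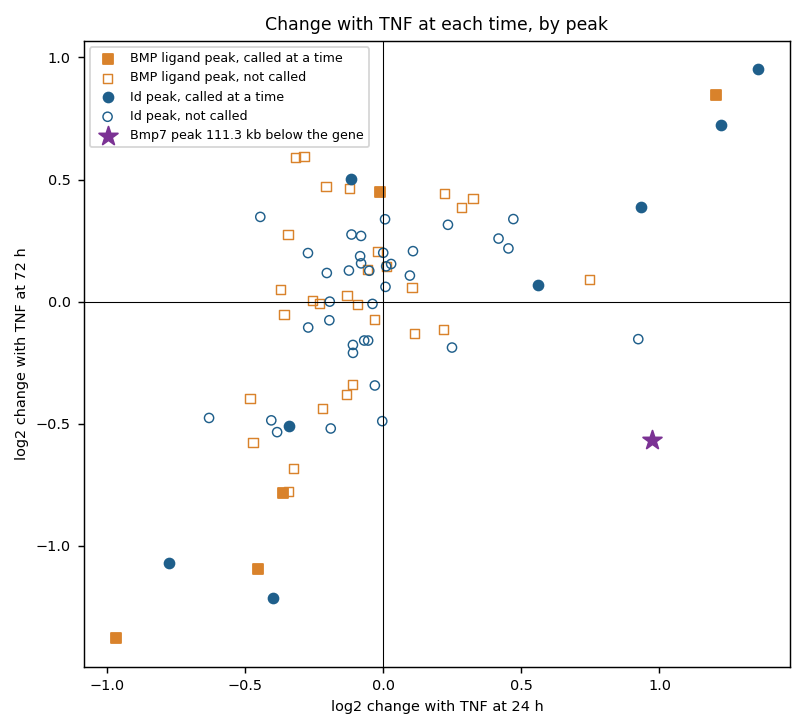
Log2 change with TNF at 24 h (x axis) against that at 72 h (y axis) for the 78 peaks and the peak 111.3 kb below Bmp7 (star), with BMP ligand peaks as squares and Id peaks as circles, filled where the change was called at either time. The 13 called peaks lie mostly towards the upper right and the lower left, and the star, chosen on these values, lies furthest into the lower right.

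The other genes of the BMP pathway were followed through their own gene-end peaks, which 40 of 48 listed genes had. From NSPs to 24 h, 3 of these peaks rose and 19 fell, from 24 h to 72 h 1 rose and 19 fell, and from 72 h to 1 week 18 rose and 2 fell. Over the whole course 3 rose and 25 fell, with a median change of -0.40. The gene-end peaks of all genes also leaned down at first and up later, with 6.27% rising and 39.3% falling to 24 h, and 54.0% rising and 6.12% falling from 72 h to 1 week, but over the whole course 26.5% rose and 27.6% fell, with a median of 0.01. Both sets were counted with the deposited scaling only. With equal total reads, the median over all peaks from 72 h to 1 week was -0.31 instead of 0.02, so that the balance at this step depends on the scaling. Of the 8 receptor genes with a peak, none rose and 7 fell over the course, among them Bmpr1a (-0.71, SE 0.14, adjusted p = 3.59e-05), which encodes a type I receptor. Of the 5 other ligand genes, none rose and 4 fell, with Gdf7 going from 151 ± 23.5 to 36.6 ± 5.82 (-2.02, SE 0.20, adjusted p = 3.98e-10). Of the 10 antagonist genes, none rose and 6 fell, with Fst (-1.53, SE 0.14, adjusted p = 6.74e-11) and Grem1 (-1.76, SE 0.23, adjusted p = 1.04e-07), which encode secreted proteins that bind ligands of this superfamily, changing most. Of the 4 transducer genes, Smad5 and Smad9 fell, and Smad1 and Smad4 were not called. Of the 6 inhibitors inside the cell, 2 rose and 3 fell, the latter being Smurf1 (-0.63), Smurf2 (-0.50) and Skil (-0.75). Of the 9 targets, 3 rose and 3 fell, the latter being Hey1 (-0.73), Hes1 (-0.48) and Msx2 (-0.95).

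The 3 genes whose peaks rose over the course were Smad6, Smad7 and Atoh8, the first 2 being listed both as inhibitors inside the cell and as targets. Smad6 and Smad7 encode inhibitory Smads that are themselves induced by BMP or TGF-β signals, and Atoh8 a transcription factor known as a target of BMP signals. At Smad6 the mean went from 396 ± 77.7 in NSPs to 739.7 ± 66.2 at 24 h and 1126 ± 98.3 at 1 week (SD, n = 3, 3 and 4), and the change over the course was 1.52, SE 0.12, adjusted p = 3.69e-12. At Atoh8 it went from 102 ± 29.3 to 215 ± 18.9 and 251 ± 17.3 in the same groups (1.33, SE 0.15, adjusted p = 5.73e-09). With TNF none of the 40 was called at 24 h, and 3 were higher at 72 h, namely Gdf7 (0.66, SE 0.21, adjusted p = 0.0403), Sostdc1 (0.91, SE 0.27, adjusted p = 0.024) and Msx2 (1.03, SE 0.33, adjusted p = 0.0399). The share of all gene-end peaks called is that given above for each time.

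The gene-end peaks of other genes whose levels ran most like those of the members over the 19 libraries were Aldh1a3 for Bmp2 and Tmem229a for Bmp2 (Pearson r = 0.95 and 0.94), Gli1 and Psma3 for Bmp6 (0.78 and 0.72) and Ext1 and Bok for Bmp7 (0.93 and 0.93). For the Id genes they were Ass1 and Arhgef2 for Id1 (0.88 and 0.85), Pnrc1 and Thap12 for Id2 (0.94 and 0.94), Rnf182 and Rpe65 for Id3 (0.84 and 0.82) and Sec16a and Calr for Id4 (0.97 and 0.97). These are descriptions, the highest values among 13328 peaks in libraries that share their groups and their scaling. The outermost peak inside the 50 kb window was 49.3 kb below Id1, at an end of Mcts2, with means of 781 in NSPs and 840.4 at 1 week, and the nearest outside was 50.9 kb above Id4, with 39.3 and 64.8.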

How the data were processed

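ATAC-seq was performed on 19 libraries in 6 groups. Per the submitters' processing notes and the study's methods, the authors used FastQC, Trim Galore, Bowtie2, SAMtools and MACS2 (versions not given in the sources used here), build mm10, HOMER and DiffBind. They deposited 1 table of normalised read signal for 90154 peaks, and 89898 of these are 500 bp long. Whether duplicates were removed and cut sites shifted is not given for the table. All values of each library were whole multiples of the value of 1 read, at a tolerance of 0.01, so that reads could be recovered. A read may also stand for a count of 0 in such a table.

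The deposited signal was tested with limma-trend (limma 3.58.1, R 4.3.3) on log2(value + 1), with a mean for each group over all 19 libraries. A filter (edgeR filterByExpr, minimum count 10) kept 88919 peaks and left out 1235, and p-values were adjusted by Benjamini-Hochberg over these. Calls were made at an adjusted p under 0.05. This test took the place of a count model, since the unit proved to be normalised reads. Alternatives were equal total reads, loess offsets, edgeR 4.0.16 with TMM and DESeq2 1.42.0 on the recovered reads, no filter, a pseudocount of 8, only the groups compared, a 20 kb window, the replicate number as a block and leaving out each library in turn. The procedure was tested on simulated data. Python 3.11.15 (pandas 2.3.3, matplotlib 3.10.9) was used for the rest.

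The genes, peaks and gene lists were chosen with earlier results of these data known. Peaks named by rule were those within 1 kb of a gene end and, per gene, the 1 or 2 with the smallest p over the differentiation steps and over the TNF comparisons; the other peaks named were chosen after their values were seen. Promoters and gene positions came from RefSeq (GRCm38.p6).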

Additional observations from a re-analysis of the deposited data

Results flagged for a closer look

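At the Id3 peak on chromosome 4 that starts at 136136075, replicate 1 of the 1 week group had 308.6 normalised reads, whereas the other 3 libraries lay between 270.7 and 276.6. Its gap to the nearest library was 0.842 of the range of the group, above Dixon's critical value for 4 libraries. In all, 30 such groups of 4 libraries were examined, and chance alone puts about 1 in 20 groups past this value.

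At the peak 111.3 kb below Bmp7, the TNF responses differed by -1.54 on the log2 scale (72 h minus 24 h), with opposite signs at the 2 times and no overlap between treated and untreated libraries at either. The peak had been chosen on this difference, which is therefore a description.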

How the results depend on the processing

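Of 35 values named by rule, 30 were called, and 23 of these kept their call under each alternative run for them. With the 20 kb window, which holds 41 peaks, 13 rose and 7 fell from NSPs to 24 h, 4 fell from 24 h to 72 h, 9 rose and 8 fell from 72 h to 1 week, 21 rose and 10 fell from NSPs to 1 week, 2 rose with TNF at 24 h and 3 fell with TNF at 72 h, since fewer peaks are counted. With equal total reads, 14 rose from 24 h to 72 h, 8 rose and 31 fell from 72 h to 1 week, 0 fell with TNF at 24 h and 1 rose with TNF at 72 h. From 72 h to 1 week, 10 rose with loess offsets and 10 with edgeR. For TNF at 24 h, 2 fell with DESeq2, 0 without the filter and 0 with the replicate block. With only the groups compared, 14 rose from 24 h to 72 h, 3 fell with TNF at 24 h, and 7 rose and 11 fell with TNF at 72 h. The cause was not tested for these, apart from the window.

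Leaving out 1 library gave 21 to 28 rising and 12 to 15 falling peaks from NSPs to 24 h, 8 to 14 and 6 to 9 from 24 h to 72 h, 10 to 19 and 13 to 20 from 72 h to 1 week, and 31 to 36 and 22 to 24 from NSPs to 1 week. For TNF it gave 3 to 6 and 0 to 3 at 24 h, 1 to 5 and 4 to 10 at 72 h, and 0 and 0 for the difference between the times. The count moved by over 1.5 times without NSP replicate 1 (14 rising from 24 h to 72 h, 3 falling with TNF at 24 h, 5 rising and 10 falling with TNF at 72 h), without 72 h replicate 2 (10 rising from 72 h to 1 week), without 24 h replicate 2 or 24 h with TNF replicate 3 (3 rising with TNF at 24 h), and without 72 h replicate 1 or 72 h with TNF replicate 3 (1 rising with TNF at 72 h). Without NSP replicate 1, 1 call was lost and 5 were gained from NSPs to 24 h, and 5 and 5 from NSPs to 1 week.

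From 72 h to 1 week, the change at the Id2 gene-end peak was -0.047 with equal total reads and -0.38 with loess offsets, against 0.30, and that at the Id4 peak starting at 48227670 was -0.10 with loess offsets, against 0.45. Same-numbered libraries of compared groups had deviations correlated at -0.04 to 0.11, so that no clear shared effect of the number was seen. Whether same-numbered libraries come from one culture is not given by the labels, and these correlations cannot settle it. With the replicate block, 30 peaks rose from NSPs to 1 week, against 36. At 72 h with TNF, the numbers in the titles, used here, differ from those in the library names. By the latter, a choice made after seeing the data, shared numbers had correlations of 0.02 and 0.03, and with the replicate block by these 1 peak rose with TNF at 72 h, against 3, while the other counts moved by less than 1.5 times. Peaks at few reads, such as those of Bmp7 and Id2 with 1 to 15 reads in a library, carry the largest counting error.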
